A study of Mus musculus with 96 samples.

Results

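The rhythms described here are those of RNA from the ventricles of female mice that had received tamoxifen, and the members are the 24 libraries that the labels give to that group, of 96 libraries in the series. All 96 libraries carry the genotype label iCSBmal1 KO, an inducible knockout of Bmal1 (gene symbol Arntl) aimed at cardiomyocytes, so the vehicle mice carry the construct too. The 24 libraries cover 12 times, from ct18 to ct62 every 4 h with 2 libraries each. The ct of the labels was taken to mean hours of circadian time. Every rhythm was set beside the same fit in 24 vehicle female libraries and in 24 tamoxifen male libraries of the same genotype, tissue and times. The labels give no age, no promoter for the recombinase and no lighting or feeding schedule. No library from mice without the construct that received tamoxifen was analysed here, so the drug and the knockout cannot be told apart. The labels do not say that libraries came from separate animals, so each p-value speaks only of the spread among libraries, which may be technical. Ventricle RNA also holds endothelial cells, fibroblasts, macrophages and other cells that the knockout is not aimed at, and in such bulk RNA fewer cells of a type and less RNA per cell cannot be told apart.

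In the circadian clock, BMAL1 pairs with CLOCK or NPAS2 and activates genes through a DNA element called the E-box. Among these genes are the Per and Cry genes, whose proteins switch the pair off again, the REV-ERB genes Nr1d1 and Nr1d2, whose proteins repress Arntl, and output factors such as DBP, TEF and HLF, which act through the D-box. Heart tissue is also known to receive daily signals from outside the cell, among them body temperature, feeding and glucocorticoid hormone.

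Libraries of tamoxifen females held 12409000 to 19137000 counts (median 15526000, n = 24), so 3 counts, the level that a count of 0 allows, correspond to 0.157 to 0.242 CPM, that is counts scaled to the size of the library. The 10 cardiomyocyte markers summed to 49687 to 72179 CPM in every tamoxifen female library and to 53949 to 68506 CPM in vehicle females. The library labelled ct54_559 goes against its sex label. It held 0.248 CPM of Xist where its partner ct54_558 held 281 CPM and tamoxifen males 0 to 0.316 CPM, and 10.3 CPM of the Y-linked Ddx3y where the partner held 0 and the 24 tamoxifen male libraries 127 to 199 CPM, so on Ddx3y it matched neither sex. It also held 661 CPM of the atrial gene Myl7 against 0.852 CPM in ct54_558, and its atrial, adipocyte and mesothelial marker sums were the highest of the group at 3530, 234 and 93.8 CPM, against group medians of 130, 0.838 and 25.7 CPM. The library labelled ct58_565 held 2.78 CPM of Arntl against 10.44 CPM in its partner ct58_595 and 1.14 and 2.17 CPM in the vehicle female libraries of ct58. For 25 of 30 clock genes it lay nearer to the vehicle mean of its time than to its partner, where 3 to 17 of 30 did so in the other 23 libraries. Main counts were computed again with ct54_559 and ct58_565 left out. No vehicle female or tamoxifen male library was left out of a fit of its group.

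A 24 h cosine was fitted to each of 15629 genes over the 24 libraries, with edgeR's quasi-likelihood test and Benjamini-Hochberg adjustment over those genes, and a gene was called rhythmic at an adjusted p below 0.05. Of these, 3942 genes (25.2%) were called in tamoxifen females. The count was 3539 (22.6%) without ct54_559 and ct58_565, and 3259 of the 3942 were called in that fit too. The same fit called 6623 genes (42.4%) in vehicle females and 1425 (9.12%) in tamoxifen males. Amplitude is given as the distance from mean to peak in log2 units, and fold as peak over trough of the fitted curve. Called rhythms in tamoxifen females were mostly shallow, with a median amplitude of 0.20 (1.32-fold), and 1106 reached 1.5-fold, 384 reached 2-fold and 71 reached 4-fold. Without ct54_559 and ct58_565 those numbers were 1003, 338 and 46.

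Peaks were spread over the whole day. Each 4 h window held between 13.5% (CT 0 to 4) and 18.8% (CT 20 to 24) of the called genes, and between 14.2% and 20.5% without ct54_559 and ct58_565. In vehicle females the windows from CT 4 to 8 and from CT 16 to 20 held 24.5% and 27.5% of the calls and that from CT 8 to 12 held 9.35%. In tamoxifen males the fullest windows were CT 8 to 12 with 27.0% and CT 20 to 24 with 32.1%. Among rhythms of at least 1.5-fold in tamoxifen females, 306 peaked from CT 4 to 8, the circadian time of library ct54_559, and 187 did so without ct54_559 and ct58_565.

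**Figure D1:**
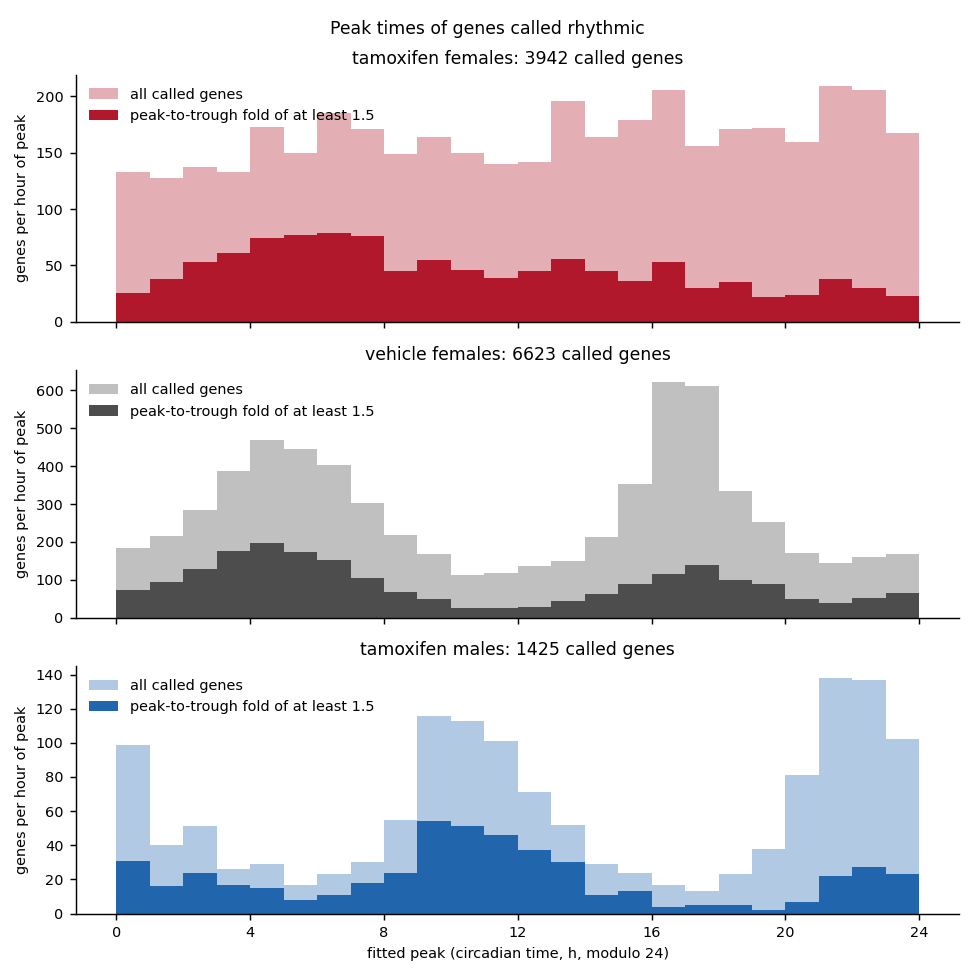
Histograms of the fitted peak time (circadian time in hours, x axis) of genes called rhythmic, as genes per hour (y axis), in tamoxifen females, vehicle females and tamoxifen males, with rhythms of at least 1.5-fold in the darker shade. The 3942 peaks of tamoxifen females are spread over the day, while the 6623 of vehicle females and the 1425 of tamoxifen males each gather in 2 windows.

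Of 30 clock genes in 3 lists, 25 were called rhythmic in tamoxifen females, 29 in vehicle females and 20 in tamoxifen males. Among all genes, 25.2%, 42.4% and 9.12% were called. Without ct54_559 and ct58_565 the count was 26. The median amplitude over the 30 was 0.51 (2.04-fold), against 0.85 (3.26-fold) in vehicle females and 0.44 (1.84-fold) in tamoxifen males. Over all genes tested the medians were 0.12, 0.15 and 0.10. The difference between the fitted rhythms of tamoxifen and vehicle females was called for 13 of the 30, with the smaller amplitude in tamoxifen females for 12 of them, where 2.49% of all genes had a called difference.

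In the activating arm, Arntl (chromosome 7, 113207465 to 113314126 on GRCm38) had a lowest library of 2.78 CPM (ct58_565), a median of 16.8 and a highest of 29.3 CPM in tamoxifen females. Its time means ran from 28.1 CPM at ct50 to 6.61 CPM at ct58, and the 2 libraries of each of the other 10 times lay between 7.83 and 28.6 CPM. High libraries fell at ct22, ct26, ct46 and ct50, that is late in the subjective night and near dawn in both cycles. The fitted rhythm was 3.32-fold (amplitude 0.86 ± 0.09 SE, adjusted p = 1.2e-06) with its peak at CT 0.69 ± 0.40. In vehicle females it was 26.3-fold, and the difference between the rhythms was called (1.53 ± 0.17 log2, adjusted p = 5.6e-07). Without ct54_559 and ct58_565 the amplitude was 0.80. Counts over the whole gene hold exons outside any deleted stretch as well as Arntl of cells other than cardiomyocytes.

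Npas2, the alternative partner of BMAL1, was called at 1.97-fold (adjusted p = 0.0042) against 6.33-fold in vehicle females, and the difference was called (adjusted p = 0.0030). Clock was called at 1.64-fold with its peak at CT 23.7. Rora, Rorb and Arntl2 did not pass in tamoxifen females, at adjusted p = 0.28, 0.67 and 0.33. Over the 7 genes of this arm 3 were called, the median amplitude was 0.21 and that in vehicle females 0.61.

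All 11 repressors were called, in the fits with and without ct54_559 and ct58_565, with peaks from CT 9.55 (Nr1d1) to CT 22 (Nfil3). The deepest rhythms were those of Ciart, Per2, Per3 and Nr1d1. Nr1d1 (chromosome 11, 98767932 to 98775333) held 11.9 CPM in its lowest library, 39.8 in the median and 180 in the highest, which was ct58_565. At ct34 its libraries held 107 and 119 CPM and at ct22 11.9 and 15.2 CPM, so the groups of those times lay far apart. Its rhythm was 9.80-fold (1.65 ± 0.08, adjusted p = 2.4e-12) against 13.2-fold in vehicle females, and the peak lay 2.89 h later than in vehicle females (95% interval 2.42 to 3.35 h). The difference of the Nr1d1 rhythms was called (1.303 ± 0.11 log2, adjusted p = 2.5e-10), with an amplitude change of -0.21 ± 0.12.

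Per2, a core repressor, held 5.12 to 73.2 CPM (median 31.9) and peaked at CT 15 with 10.7-fold. Its libraries of ct26, ct30, ct50 and ct54 lay between 5.12 and 8.86 CPM and those of ct38 and ct62 between 66.4 and 73.2 CPM. Per3 held 5.09 to 89.0 CPM (median 25.5) and had 10.44-fold against 7.91-fold in vehicle females. Its peak at CT 13.3 lay 1.64 h later, and the difference was called (adjusted p = 0.010). Per1, which also responds to glucocorticoids, was called at 2.55-fold over the 24 libraries. In the first 24 h alone its amplitude was 0.24 (adjusted p = 0.51) and in the second 24 h 1.23 (adjusted p = 0.00025). One library of ct34 held 37.1 CPM of Per1 and the other 86.4 CPM.

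Ciart, a repressor of the CLOCK and BMAL1 pair, was a low gene with a wide range, from 0.326 CPM at ct46 through a median of 0.998 to 38.5 CPM in library ct58_565. The partner of ct58_565 held 6.11 CPM and the ct34 libraries 6.21 and 7.76 CPM. Its amplitude was 2.60 (36.9-fold) in all 24 libraries and 2.01 without ct54_559 and ct58_565, against 1.97 in vehicle females. Nr1d2 showed 4.96-fold against 3.36-fold in vehicle females, a difference that did not pass the test (adjusted p = 0.066) and passed it without ct54_559 and ct58_565 (adjusted p = 0.021).

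Cry1 and Nfil3 peaked late in the cycle with smaller amplitudes than in vehicle females. Cry1 went from 3.52-fold in vehicle females to 1.87-fold (adjusted p of the difference = 0.0025), and Nfil3, which represses D-box genes, from 4.85-fold to 1.83-fold (adjusted p = 0.0028). At ct54 the Nfil3 libraries held 32.6 and 45.6 CPM in tamoxifen females and 6.63 and 9.75 CPM in vehicle females. Library ct58_565 held 8.89 CPM of Nfil3, and the next lowest of the 24 held 32.6 CPM. Bhlhe41 and Cry2 had called differences with smaller amplitudes (adjusted p = 0.019 and 0.010), and Bhlhe40 did not (adjusted p = 0.16).

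**Figure D2:**
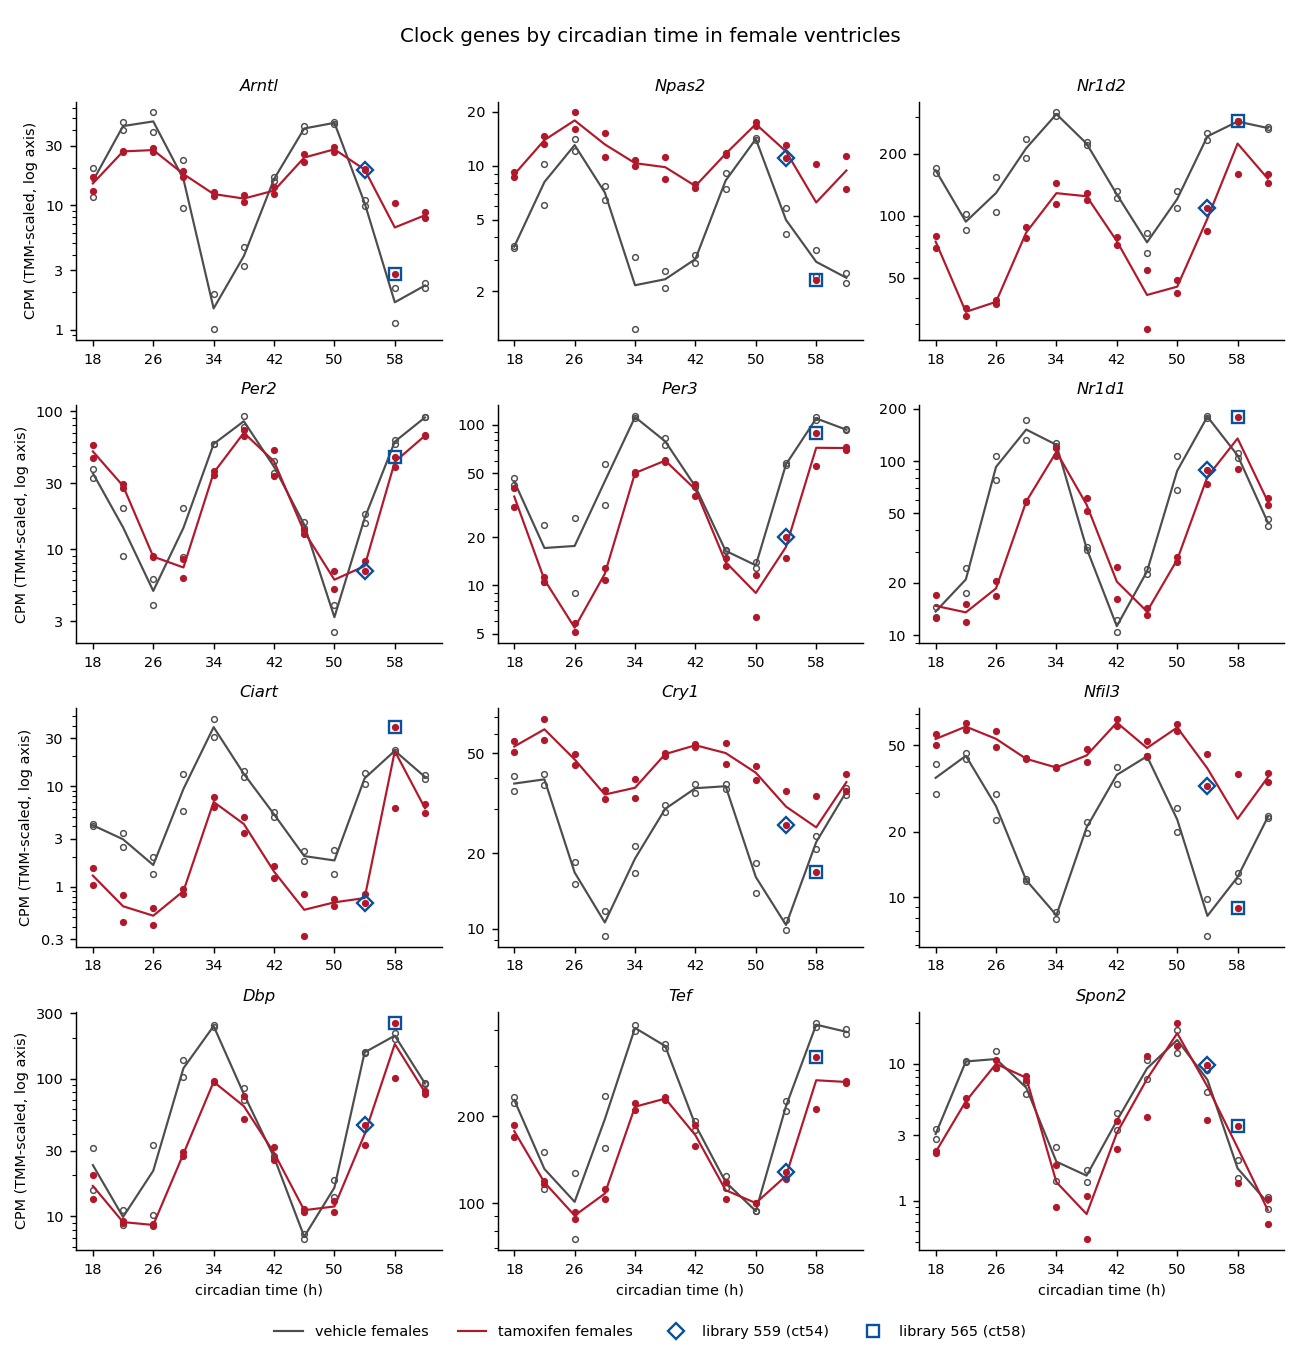
CPM (TMM-scaled, log axis) of 12 clock genes by circadian time from 18 to 62 h in tamoxifen females (filled points, one per library, with the line through the mean of 2 libraries) and vehicle females (open points), with libraries ct54_559 and ct58_565 marked. Arntl, Npas2, Cry1 and Nfil3 are flatter in tamoxifen females, while Per2, Per3, Nr1d1, Dbp and Spon2 keep a wide range.

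Among the 12 output genes, 11 were called in tamoxifen females and 12 in vehicle females, with median amplitudes of 0.69 and 0.80. Dbp, a D-box activator, had the largest amplitude of the called genes that are expressed at 5 CPM or more and stay called without ct54_559 and without ct58_565. It ran from 8.51 CPM at ct26 to 258 CPM in library ct58_565, with a median of 28.5 CPM. Its ct34 libraries held 94.4 and 96.2 CPM and its ct22 libraries 8.95 and 9.21 CPM. The Dbp rhythm was 15.4-fold (1.97 ± 0.13, adjusted p = 3.0e-10) against 25.3-fold in vehicle females, its peak lay 1.41 h later, and the difference was called (adjusted p = 0.012). Tef and Hlf, of the same family, had 2.84-fold and 2.83-fold against 4.25-fold and 3.60-fold, and the difference was called for Tef (adjusted p = 0.012) but not for Hlf (adjusted p = 0.10).

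Spon2, which encodes a secreted matrix protein, held 0.523 CPM in its lowest library (ct38), a median of 3.87 and 20.04 CPM in its highest (ct50). It peaked at CT 1.88 with 12.2-fold against 10.8-fold in vehicle females, and the difference did not pass the test (adjusted p = 0.40). Tspan4, a tetraspanin, was called in all 3 groups at 3.35-fold, 2.89-fold and, in males, 3.30-fold. Wee1, a cell cycle kinase, was called at 2.42-fold with a peak 2.15 h later than in vehicle females. Lonrf3, at a mean of 1.31 CPM, was called at 4.51-fold. Nampt, which makes an NAD precursor, was the output gene that was not called in tamoxifen females (1.13-fold, adjusted p = 0.68) and was in vehicle females (1.495-fold). The test of that difference did not pass (adjusted p = 0.27). Of 10 tested kinases and ligases that act on clock proteins, 6 were called (60%, where 25.2% of all genes were), all shallow, between 1.19-fold and 1.55-fold (Siah2).

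Promoters of clock genes with deep remaining rhythms were read for these elements. The windows are RefSeq's on GRCm38.p6, 250 bases before the annotated start, on the gene's own strand. Motifs in capitals are the E-box CACGTG and the D-box TTATGTAA, searched on both strands. Ciart (chr3:95882229-95882478, minus strand) held 3 E-boxes, Per3 (chr4:151044666-151044915, minus strand) held 2 D-boxes, and the upstream start of Tef (chr15:81802423-81802672, plus strand) held 1 E-box.
Ciart: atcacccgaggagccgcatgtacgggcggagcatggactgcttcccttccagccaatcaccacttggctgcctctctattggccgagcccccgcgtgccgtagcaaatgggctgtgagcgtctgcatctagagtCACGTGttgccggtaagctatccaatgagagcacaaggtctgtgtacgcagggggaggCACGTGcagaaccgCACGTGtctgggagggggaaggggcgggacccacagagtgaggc
Per3: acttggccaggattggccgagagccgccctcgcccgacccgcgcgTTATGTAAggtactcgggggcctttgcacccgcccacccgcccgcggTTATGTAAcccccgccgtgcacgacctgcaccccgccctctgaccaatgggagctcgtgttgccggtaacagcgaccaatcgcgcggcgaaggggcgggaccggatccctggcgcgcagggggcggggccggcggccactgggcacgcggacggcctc
Tef: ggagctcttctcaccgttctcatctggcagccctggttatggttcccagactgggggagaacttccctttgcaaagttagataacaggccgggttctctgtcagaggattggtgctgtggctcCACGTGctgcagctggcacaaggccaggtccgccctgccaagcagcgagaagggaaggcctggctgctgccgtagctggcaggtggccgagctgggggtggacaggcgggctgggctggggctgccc
The E-box was present in 6.02% of all 32851 such windows and the D-box in 0.819%. Over genes rather than windows, 9.71% of the 11045 tested genes with a window held an E-box, as did 10.7% of the 2983 called in tamoxifen females. Among called genes of at least 1.5-fold, split into 4 h windows of peak time from CT 0 on, the shares were 8.87%, 11.3%, 10.6%, 13.3%, 4.44% and 13.2%, on 76 to 203 genes each. These shares are descriptions of short windows, and the windows of Nr1d1, Nr1d2 and Dbp held none of either motif.

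Heat shock genes, which encode the chaperones induced when proteins unfold and which are known to follow body temperature, were rhythmic at about the depth seen in vehicle females. Of 22 tested, 16 were called (14 without ct54_559 and ct58_565) against 19 in vehicle females and 6 in tamoxifen males, where the background of all genes was 25.2%, 42.4% and 9.12%. The median amplitude was 0.26, against 0.24 in vehicle females. All 16 peaks lay between CT 16.6 and CT 22.3, in the subjective night. Hsp90aa1 (chromosome 12, 110690605 to 110702728), the inducible HSP90, held 201 to 633 CPM with a median of 349 CPM. Its ct22 libraries held 536.4 and 578.5 CPM, its ct46 libraries 485 and 633, and its ct34 and ct58 libraries 201 to 227 CPM, so high and low times did not overlap in either cycle. The rhythm was 2.46-fold (adjusted p = 8.0e-09) against 2.20-fold in vehicle females.

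Hspa1a and Hspa1b, the inducible HSP70 genes, are near-identical copies whose counts may be split between them. Hspa1a ran from 1.75 to 34.7 CPM (median 3.97), at 10.3 to 34.7 CPM in the libraries of ct18, ct22, ct38 and ct42 and at 5.85 CPM or less in those of the other times but ct62. Its 7.98-fold rhythm compared with 12.1-fold in vehicle females (adjusted p of the difference = 0.11). In tamoxifen males the fit gave 1.93-fold, which did not pass (adjusted p = 0.69), and the difference between females and males did not pass either (adjusted p = 0.68). Dnaja1, an HSP70 partner, fell from 224 and 226 CPM at ct22 to 97.1 and 101 CPM at ct34, a 2.24-fold rhythm against 3.07-fold in vehicle females. Chordc1, an HSP90 partner, and Hspa8, the constitutive HSP70, were called at 1.90-fold and 1.68-fold.

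The difference from vehicle females was called for 5 of 22 heat shock genes, where 2.49% of all genes had a called difference. Tamoxifen females had the larger amplitude for 4 of the 5, where 0.397% of all genes had such a difference. The count of called differences over all genes ran from 37 to 1132 over the alternative fits. In all 15 heat shock genes called in both groups the peak was later in tamoxifen females, by a median of 2.42 h, and the 95% interval of the shift lay above 0 for 13. For Hsp90aa1 the peak moved from CT 19.5 to CT 21.8 (2.34 h, interval 1.32 to 3.35 h), for Hspa8 from CT 18.4 to CT 21.1 and for Chordc1 from CT 19.2 to CT 21.4. The window before Hspa1a (chr17:34972157-34972406, minus strand, GRCm38.p6 from RefSeq) is printed because this gene had the deepest rhythm of the list, with the heat shock element GAANNTTC in capitals, a motif found in 6.69% of all windows on either strand.
Hspa1a: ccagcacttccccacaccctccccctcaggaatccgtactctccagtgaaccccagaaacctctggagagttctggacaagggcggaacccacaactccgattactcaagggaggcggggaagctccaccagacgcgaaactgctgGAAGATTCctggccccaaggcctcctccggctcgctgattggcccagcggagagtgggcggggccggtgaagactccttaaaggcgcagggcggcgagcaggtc
The window before Hspa1b shared 247 of these 250 bases.

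Genes of the cold-inducible and splicing list, RNA-binding proteins whose processing is known to follow temperature, were called for 13 of 15, as in vehicle females, with a median amplitude of 0.17 against 0.29. All genes were called at 25.2% in tamoxifen females and 42.4% in vehicle females. Srsf5, a splicing factor, had a rhythm of 1.69-fold with a peak at CT 6.87, and Srsf10, of the same family, 1.42-fold with a peak at CT 18.9. Srsf7 behaved otherwise: it held 74.1 to 95.3 CPM over the 24 libraries (1.02-fold, adjusted p = 0.93) and was called at 1.40-fold in vehicle females, with a called difference (adjusted p = 0.016). Its highest time mean in vehicle females was 116 CPM, at ct42, against a median of 82.0 CPM over the group.

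Targets of the glucocorticoid receptor were called for 13 of 20 in tamoxifen females, 18 in vehicle females and 13 in tamoxifen males, with median amplitudes of 0.40, 0.58 and 0.34. Shares over all genes were 25.2%, 42.4% and 9.12%. Zbtb16, a transcriptional repressor, ranged from 17.4 CPM (ct54_559) through a median of 55.2 to 215 CPM (ct38). Its ct38 and ct62 libraries held 146 to 215 CPM and those of ct26 and ct30 21.04 to 31.1 CPM. Its rhythm was 5.55-fold with a peak at CT 14.3, and in vehicle females 5.89-fold with a peak at CT 14.3 (adjusted p of the difference = 0.99, amplitude difference -0.05 ± 0.23). Fkbp5, a chaperone partner of the receptor, had 3.28-fold against 4.42-fold (adjusted p of the difference = 0.47). Sesn1 was called at 1.51-fold. Fam107a, a stress-responsive gene outside the list, peaked near the time of Zbtb16 (CT 14.5, 5.48-fold). The list had no single phase: its 13 called peaks ran from CT 3.90 to CT 22.9, with 6 from CT 12 to CT 16. Pdk4 and Angptl4, given below with the fuel genes, belong to this list too.

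Immediate early genes, the first transcribed after a stimulus, were called for 10 of 20 against 17 in vehicle females and 2 in tamoxifen males. The background of all genes was 25.2%, 42.4% and 9.12%, so the male count was near that of all genes. Of the 10 peaks, 7 lay from CT 0 to CT 4. Nr4a1, a nuclear receptor, had 4.57-fold and a peak at CT 3.89. It held 5.22 to 60.5 CPM, with ct54_559 the highest, and remained called without ct54_559 and ct58_565 (adjusted p = 0.0061). Fos was called at 4.06-fold, with 3.27 as its peak CT against 0.10 in vehicle females. Ier3 was called at 2.05-fold and Myc at 1.67-fold. In either 24 h alone Fos and Myc did not pass the test.

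**Figure D3:**
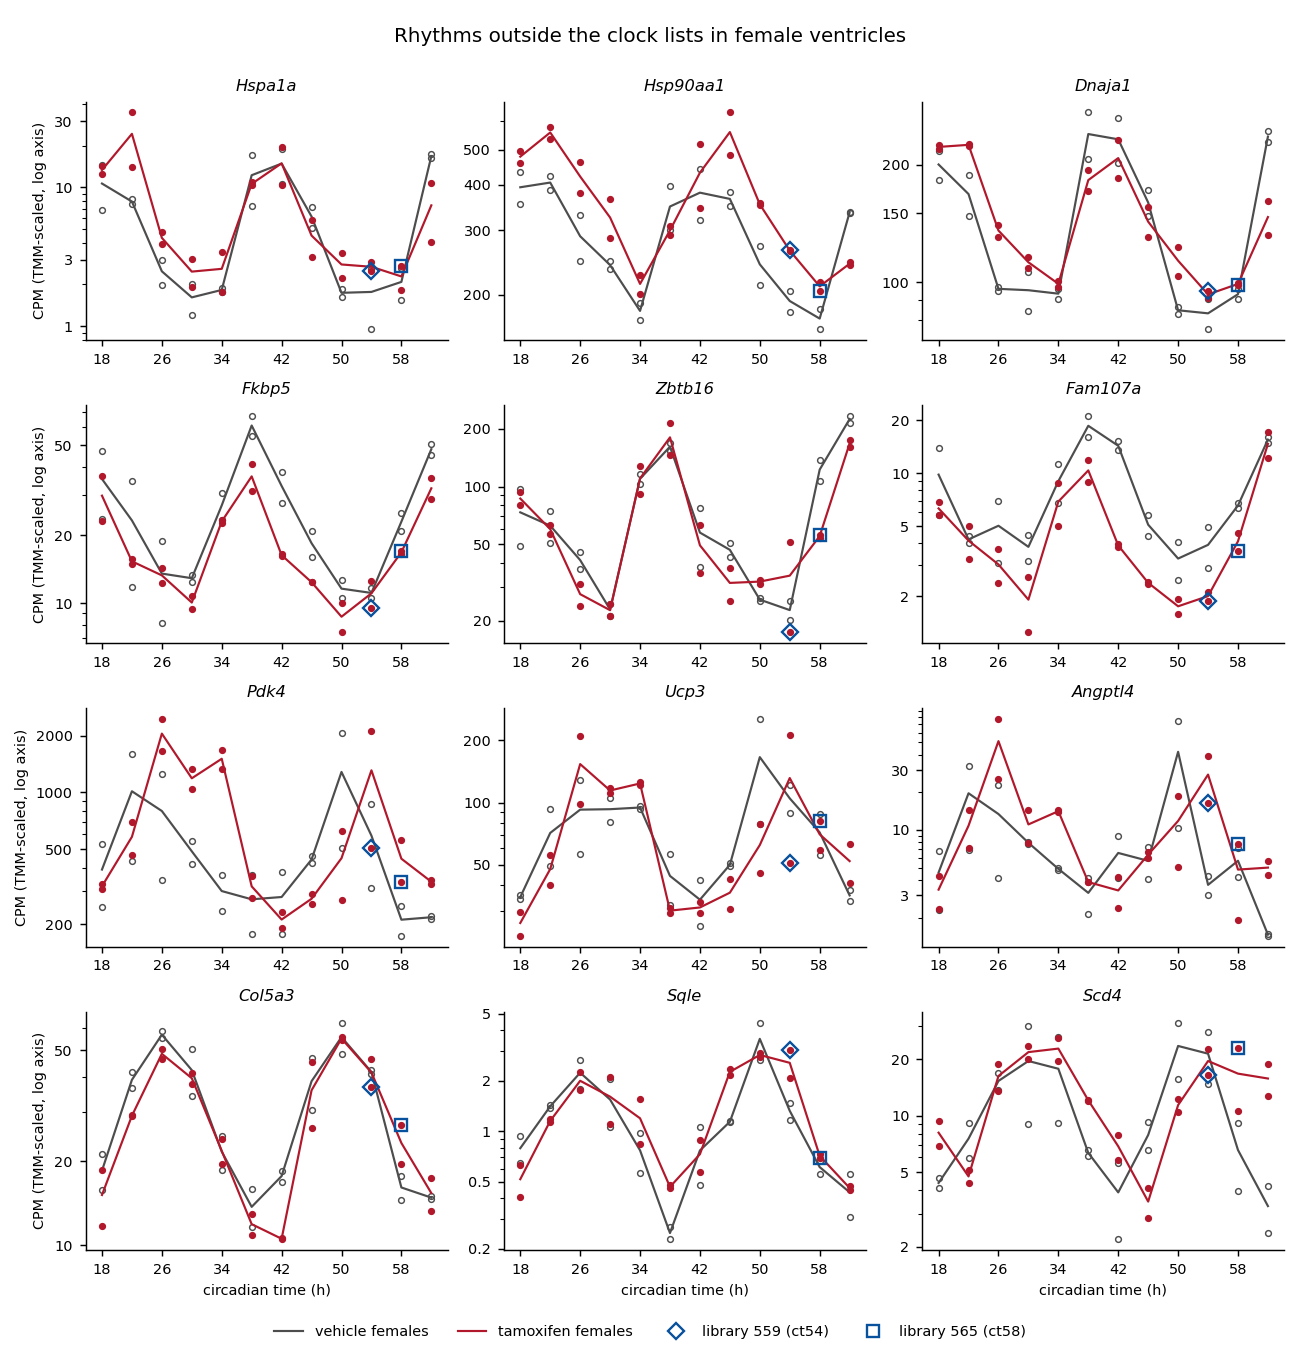
CPM (TMM-scaled, log axis) of 12 genes outside the clock lists by circadian time from 18 to 62 h in tamoxifen females (filled points and line of means) and vehicle females (open points), with libraries ct54_559 and ct58_565 marked. The fitted peaks of Hsp90aa1, Pdk4 and Scd4 lie 2.34, 4.21 and 3.59 h later than in vehicle females, those of Col5a3 and Sqle 0.99 and 0.74 h, and that of Zbtb16 0.032 h.

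Among fuel genes a few had deep rhythms and most did not. Of 30 genes of fatty acid use, 10 were called (33.3%, where 25.2% of all genes were), with a median amplitude of 0.11, close to that of all genes. Without ct54_559 and ct58_565 the count was 13 of 30, where 22.6% of all genes were called. Pdk4, which holds back glucose oxidation, ran from 191 CPM at ct42 through a median of 415 to 2447 CPM at ct26. Its 6 libraries of ct26, ct30 and ct34 held 1041 to 2447 CPM, above all others but ct54_558, which held 2115 CPM where ct54_559 held 506. The rhythm was 6.06-fold with a peak at CT 5.39, 4.21 h later than in vehicle females (interval 2.47 to 5.96 h), and the difference was called (adjusted p = 0.030). In vehicle females library ct50_444 held the most Pdk4, 2060 CPM, where the ct50 mean was 1285 CPM and the group median 373 CPM. Ucp3, a mitochondrial carrier, had 4.86-fold with a peak at CT 5.82. Angptl4, a secreted inhibitor of lipoprotein lipase, had 8.86-fold with a peak at CT 3.90 against 8.21-fold and CT 1.22 in vehicle females. There too ct50_444 was the highest vehicle library, at 73.9 CPM against a ct50 mean of 42.1 and a group median of 4.89 CPM. The part of ct50_444 in these vehicle peaks was not tested. Lipe, the hormone-sensitive lipase, was called at 1.54-fold.

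The fit of the desaturase Scd1 took its phase from 1 library. Its 23 other libraries held 12.99 to 30.5 CPM and library ct54_559 held 456.9 CPM. The fit over 24 libraries gave a peak at CT 5.13 and 4.77-fold (adjusted p = 0.035), and the call was lost without ct18_504, ct62_568 or ct62_569 (adjusted p = 0.052, 0.053 and 0.052). Without ct54_559 the amplitude was 0.32, and without ct54_559 and ct58_565 it was 0.36 with a peak at CT 21. Its relative Scd4 did not depend on ct54_559, with 4.15-fold, a peak at CT 8.36 and 1.05 as the amplitude without ct54_559 and ct58_565. The Scd4 peak lay 3.59 h later than in vehicle females and the difference was called (adjusted p = 0.010). The highest vehicle library of Scd4 was ct50_444, at 31.4 CPM against a ct50 mean of 23.5 CPM, and its part in that shift was not tested.

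Of 29 genes of glucose use and insulin signalling, 14 were called (48.3%) against 22 in vehicle females, where all genes gave 25.2% and 42.4%. Pfkfb3, an activator of glycolysis, had 2.41-fold with a peak at CT 10.05. Pik3r1, G0s2 and Foxo3 were called at 1.73-fold, 1.80-fold and 1.56-fold, all with peaks between CT 14 and CT 17. Adh1, an alcohol dehydrogenase outside the lists, was called at 4.26-fold with its peak at CT 13.7. Egln3, an oxygen sensor, had 2.24-fold against 1.42-fold in vehicle females, and its difference, with the larger amplitude in tamoxifen females, was called (adjusted p = 0.028).

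Matrix genes were called for 18 of 28 in tamoxifen females, 20 in vehicle females and 16 in tamoxifen males, with median amplitudes of 0.25, 0.36 and 0.26. Over all genes tested, the shares called were 25.2%, 42.4% and 9.12%. Of the 18 peaks, 14 lay from CT 0 to CT 8. Col3a1, a fibrillar collagen, held 89.7 to 378 CPM and had 2.51-fold with a peak at CT 4.52. Col5a3, a minor collagen outside the list, was at 10.5 to 10.6 CPM at ct42 and 54.6 to 55.6 CPM at ct50. Its rhythm of 4.30-fold compared with 4.27-fold in vehicle females and 3.41-fold in tamoxifen males. Timp3, an inhibitor of matrix proteases, had the opposite phase, with 2.35-fold and a peak at CT 14.7. P4ha1, which modifies collagen, and Ccn1, a matrix signalling protein, were called at 1.98-fold and 2.01-fold with peaks at CT 20.7 and CT 0.63. The fibroblast marker sum of the libraries ran from 1909 to 3299 CPM, highest in ct54_559. Its part in these rhythms was not tested, and 17 of 28 matrix genes were called without ct54_559 and ct58_565.

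Sterol genes were called for 10 of 15 (10 without ct54_559 and ct58_565), 12 in vehicle females and 6 in tamoxifen males. The shares of all genes were 25.2%, 42.4% and 9.12%. Of the 10 peaks, 7 lay from CT 0 to CT 4. Sqle, an early enzyme of cholesterol synthesis, held 0.404 to 3.02 CPM and had 5.46-fold. Srebf2, an activator of sterol genes, had 1.32-fold. Genes of the endoplasmic reticulum and integrated stress responses were called for 11 of 21 (52.4%, where 25.2% of all genes were). Creld2 (1.73-fold), Xbp1 (1.48-fold) and Dnajb9 (1.34-fold) peaked between CT 22.8 and CT 23.7, and Herpud1 (1.86-fold) at CT 16.

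Calls among ion channel, calcium handling and sarcomere genes are set beside the 25.2% of all genes called over the 24 libraries. Of 32 ion channel genes, 6 were called (18.8%) against 20 in vehicle females, where 42.4% of all genes were called. The difference itself was called for 1 of the 32, where 2.49% of all genes had a called difference. Without ct54_559 and ct58_565, 7 of the 32 were called, a share near the 22.6% of all genes in that fit. Kcnh2, a repolarising potassium channel, had 1.68-fold with a peak at CT 9.43. Kcnj12, an inward rectifier, was called at 1.41-fold in tamoxifen females. In vehicle females its fit gave 1.298-fold (adjusted p = 0.14), and the difference did not pass (adjusted p = 0.074). Kcna5 was called at 1.55-fold, with adjusted p = 0.64 in the first 24 h alone and 0.0038 in the second. Its call over all 24 libraries was lost without ct50_591, ct62_568 or ct62_569 (adjusted p = 0.054, 0.084 and 0.064).

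Calcium handling genes were called for 6 of 16 (37.5%), among them the exchanger Slc8a1 (1.32-fold) and the kinase Camk2d (1.23-fold). Without ct54_559 and ct58_565 the count was 5 of 16. In the sarcomere list 3 of 22 were called (13.6%), and 3 without ct54_559 and ct58_565. All genes were called at 25.2% in the full fit and at 22.6% without those libraries. Tcap, a titin cap protein, had 2.34-fold with a peak at CT 9.27, at 250 to 590 CPM in 23 libraries and 1249 CPM in ct58_565, and 0.46 as its amplitude without ct54_559 and ct58_565. None of 26 nuclear genes of oxidative phosphorylation was called in tamoxifen females by edgeR, with 0 at an unadjusted p below 0.05, 0 by DESeq2 and 0 by limma voom. In vehicle females 21 of the 26 were called, where 42.4% of all genes were. The median amplitudes were 0.041 in tamoxifen females and 0.16 in vehicle females. The difference was called for 1 of the 26, where 2.49% of all genes had a called difference. The lowest p of the 26 in tamoxifen females was that of Ndufs1 (1.10-fold, adjusted p = 0.19).

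**Figure D4:**
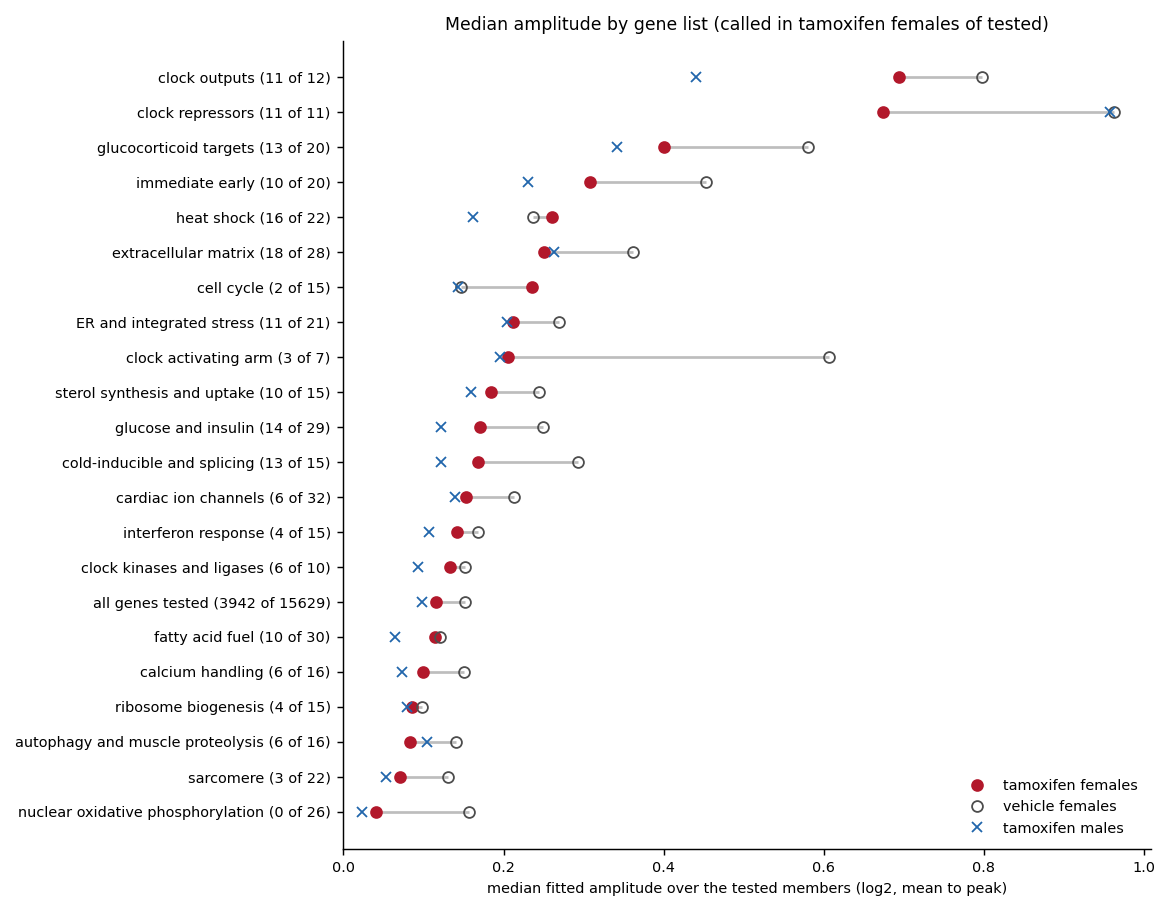
Median fitted amplitude (log2, mean to peak, x axis) over the tested members of each gene list in tamoxifen females (filled circles), vehicle females (open circles) and tamoxifen males (crosses), with the number of members called in tamoxifen females of those tested. Clock repressors and outputs lie at 0.67 and 0.69 in tamoxifen females, heat shock genes at 0.26 and oxidative phosphorylation at 0.041.

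Shares of further lists are set here beside the 25.2% of all genes tested. Autophagy and muscle proteolysis genes were called for 6 of 16 (37.5%), led by the ubiquitin ligase Trim63 (1.31-fold) and the autophagy receptor Sqstm1 (1.26-fold). Interferon response genes were called for 4 of 15 (26.7%), a share near that of all genes, with peaks between CT 8.31 and CT 11.1, and Irf7, which drives that response, had 1.45-fold. Ribosome biogenesis genes were called for 4 of 15 too, Nop56 (1.26-fold) among them, and cell cycle genes for 2 of 15 (13.3%), Ccne1 (2.10-fold) and Cdkn1c (1.39-fold), of which Ccne1 was not called without ct54_559 and ct58_565 (adjusted p = 0.15), without ct58_565 alone (0.11) or without ct22_510 (0.053).

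None of 10 cardiomyocyte markers, 9 mural, 5 erythroid or 4 mesothelial markers was called by edgeR or by DESeq2 in tamoxifen females. At an unadjusted p below 0.05 the edgeR counts of these lists were 0, 2, 0 and 3, and limma voom called 2, 2, 0 and 0. Of the same markers, 4, 4, 4 and 3 were called in vehicle females, where 42.4% of all genes were. The vehicle counts of cardiomyocyte and mural markers lay near that share. Of 10 endothelial markers 4 were called (40%, where 25.2% of all genes were): Cldn5, a tight junction protein (2.24-fold), Flt1 (1.60-fold) and Kdr (1.49-fold), both VEGF receptors, and Egfl7 (1.31-fold). The Cldn5 peak moved from CT 21.5 in vehicle females to CT 1.97, with a called difference (adjusted p = 0.017). Of 12 macrophage markers 3 were called (25%, as of all genes): Cx3cr1, the fractalkine receptor (3.30-fold), Lyve1 (1.78-fold) and Adgre1 (1.55-fold). Cx3cr1 held 1.70 to 12.2 CPM, and its libraries of ct38 held 1.70 and 2.38 CPM against 9.54 and 12.2 CPM at ct50. Of 3 tested neutrophil markers 2 were called, S100a8 and S100a9, at means of 0.630 and 1.27 CPM with peaks at CT 2.19 and CT 2.90. Library ct50_591 had the highest macrophage, lymphocyte and neutrophil marker sums of the group, at 340, 8.15 and 8.53 CPM. The calls of Cx3cr1, S100a8 and S100a9 stayed with each library left out in turn. The calls of Myl7, Myl4 and Cfd, markers of atrial tissue and fat, were lost without ct54_559 and ct58_565 (adjusted p = 0.18, 0.38 and 0.30).

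Between tamoxifen and vehicle females the difference in rhythm was called for 389 genes (2.49%), or 419 (2.68%) without ct54_559 and ct58_565, and in all 24 libraries with the smaller amplitude in tamoxifen females for 327 (2.09%) and the larger for 62 (0.397%). That count turned on single libraries and on the model: it was 1132 without ct42_541, 245 without ct30_524, 252 without ct42_542, 1079 by DESeq2 and 37 with all 96 libraries in one model. Of the 2537 genes called in both groups, which are 64.4% of the calls in tamoxifen females and 38.3% of those in vehicle females, 176 had a called difference. Egln3, Stk40, Baiap2l1, Baz2a, Srsf6, Tbrg1, Usp16 and A430033K04Rik had the largest amplitudes relative to vehicle females among called differences. Stk40, a kinase-like protein, had 1.40-fold against 1.14-fold, and Baiap2l1, an actin regulator, 1.55-fold against 1.03-fold. At the other end Srsf7, Slc9a8, Chmp2a, Ric8b, Mov10, Tmem242, Xpo4 and BC005561 had 1.01-fold to 1.04-fold in tamoxifen females against 1.27-fold to 1.68-fold in vehicle females. In vehicle females, ct42 had the highest mean of the 12 times for Srsf7, Chmp2a, Mov10 and BC005561. For Slc9a8 and Ric8b it had the lowest. The vehicle mean of Chmp2a at ct42 was 125 CPM against a median of 79.8 CPM, and that of Slc9a8 32.8 against 44.4 CPM. No fit given here leaves out the vehicle libraries of ct42.

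Peaks lay later in tamoxifen than in vehicle females for 1899 of the 2537 genes called in both, with a median of 1.15 h and quartiles of -0.014 and 2.40 h. For 767 genes the 95% interval of the shift lay above 0 and for 109 below. Without ct54_559 and ct58_565 the median was 1.08 h over 2348 genes. For clock genes the shift was later in 24 of 25 (median 1.27 h), for heat shock genes in 15 of 15 and for matrix genes in 16 of 17 (1.15 h). Glucocorticoid targets were later in 8 of 12 (0.49 h) and cold-inducible and splicing genes in 5 of 11 (median -0.81 h). Genes with vehicle peaks from CT 8 to 12 had the largest median of the 4 h windows, 1.85 h, and those from CT 12 to 16 the smallest, 0.51 h. The title numbers of tamoxifen and vehicle libraries run in separate series, so a difference between the runs cannot be told apart from the treatment.

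**Figure D5:**
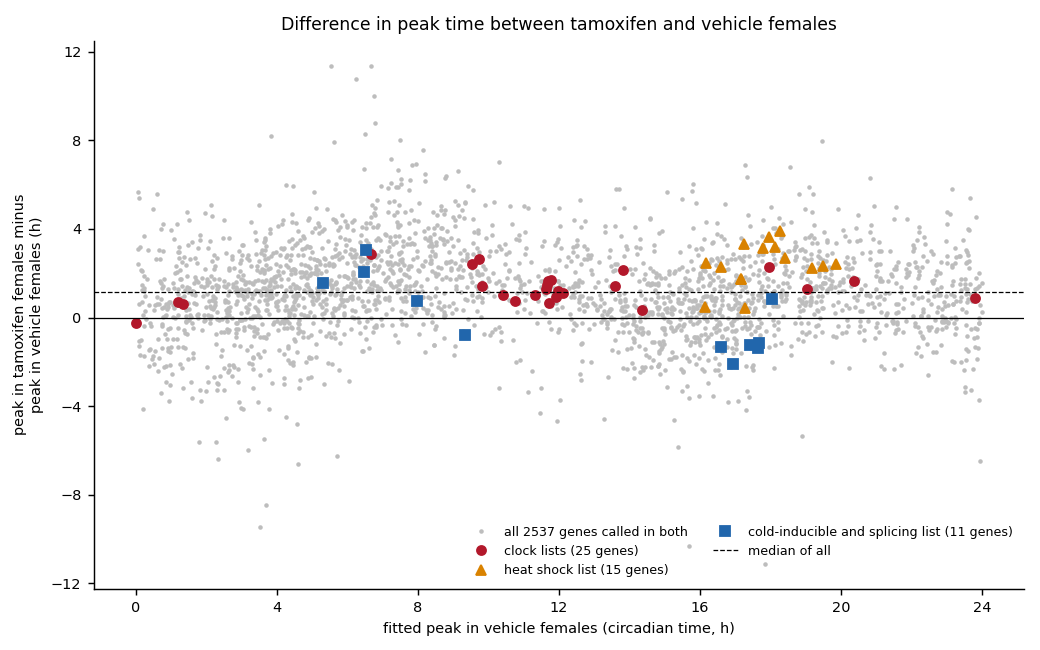
Peak time in tamoxifen females minus that in vehicle females (hours, y axis) against the peak in vehicle females (circadian time in hours, x axis) for the 2537 genes called in both, with clock, heat shock and cold-inducible and splicing genes marked. All 15 heat shock genes and 24 of 25 clock genes lie above 0, and the dashed line marks the median of 1.15 h.

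The cycles differed in how much was called. Fitted alone, the first 24 h (12 libraries, ct18 to ct38) gave 3396 calls (21.7%) and the second (12 libraries, ct42 to ct62, with ct54_559 and ct58_565 among them) 483 (3.09%), or 308 (1.97%) without ct54_559 and ct58_565. In the second 24 h, 3164 genes had an unadjusted p below 0.05. Of the genes called in the first 24 h, 2587 (76.2%) peaked within 4 h of that time in the second, compared with 53.1% of all genes tested. Their median amplitude was 0.23 in the first, where they were chosen, and 0.15 in the second, and over all genes tested the medians were 0.14 and 0.13. Genes called in both cycles numbered 360. Per2 peaked at CT 15.6 and CT 14.4 in the cycles and Nr1d1 at CT 9.76 and CT 9.38. Hsp90aa1 peaked at CT 21.9 and CT 21.8, and Pdk4 at CT 5.08 and CT 6.34.

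Tamoxifen males, whose libraries are separate from those of females, had 1425 calls, and 1001 of them (70.2%) were also called in tamoxifen females, where they are 25.4% of the calls. Of these 1001, 953 (95.2%) peaked within 4 h of each other, and peaks in females were earlier by a median of 1.29 h. A difference in rhythm between tamoxifen females and males was called for 5 genes (0.032%), and for 0 without ct54_559 and ct58_565 by edgeR (1454 at an unadjusted p below 0.05, 6 by DESeq2). None of the 30 clock genes was among the 5 (7 of the 30 at an unadjusted p below 0.05, 0 by DESeq2). The amplitude of Per2 was 1.71 in females and 0.999 in males (adjusted p of the difference = 0.31), and that of Nr1d1 1.65 and 1.56 (adjusted p = 0.35). The lowest and highest Per2 libraries of males were both of ct54, at 8.58 CPM (ct54_555) and 86.9 CPM (ct54_556). The part of such single libraries in the male amplitudes and counts was not tested. With 24 libraries a group, the test of the difference does not show that the rhythms of females and males were alike.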

How the data were processed

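RNA of 96 ventricle libraries (RNeasy extraction, poly-A selection and NovaSeq sequencing, per the labels' protocols) was deposited by the authors as whole-number read counts per gene. The submitters' processing notes name HISAT2, Picard, HTSeq and the builds GRCm38 and mm10, with no version stated there. Of 55376 genes, 15629 passed edgeR's filterByExpr (minimum count 10). Counts were TMM-scaled, and a cosine and a sine of 24 h were fitted to the 24 libraries of tamoxifen females by quasi-likelihood (edgeR 4.0.16, R 4.3.3), with Benjamini-Hochberg adjustment and a threshold of 0.05. Errors come from the delta method. Differences between groups were fitted over 48 libraries as interaction terms. The 26 entries with date-like names held 0.134% of counts. Paired libraries differed by a chi-square of 3.86 to 26.6 per gene, beyond sampling noise. Floors cover counting error only, while standard errors and 95% intervals come from the fits and carry the spread among libraries.

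Members and lists were chosen with earlier results of these data known. Named were all clock members, the 20 largest amplitudes (mean of 5 CPM or more, called without ct54_559 and without ct58_565), the 8 largest and 8 smallest amplitude ratios to vehicle females among called differences, and up to 4 called members of each other list by p. Alternatives included DESeq2 1.42.0 and limma 3.58.1. The list, peak time and second-cycle fits without ct54_559 and ct58_565 and the relaxed filter were chosen after seeing the data. The scripts were tested on simulated data. Some genes that the rule selects are not reported here.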

Additional observations from a re-analysis of the deposited data

Results flagged for a closer look

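Differences in rhythm between tamoxifen females and tamoxifen males were called for the Y-linked genes Ddx3y, Eif2s3y and Uty, which is why they are listed here. The size of the difference was 8.64, 9.11 and 6.03 on the log2 scale (edgeR adjusted p = 0.00022, 0.00022 and 0.0023). Among the ct54 and ct58 libraries of tamoxifen females, ct54_559 alone held counts of these genes, at 10.3, 9.07 and 2.28 CPM. Without ct54_559 and ct58_565 the adjusted p was 0.57 for Ddx3y, 0.93 for Eif2s3y and 0.70 for Uty.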

How the results depend on the processing

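The 3942 rhythms called in tamoxifen females numbered 2174 with 6 times of day as levels and 483 in the second 24 h alone (308 without ct54_559 and ct58_565), and 3412 to 4174 with each library left out in turn. The other alternatives gave 2675 (all 96 libraries in one model) to 5291 (limma voom with quality weights). The 389 differences from vehicle females numbered 1079 by DESeq2's likelihood ratio test, 625 among genes of at least 5 CPM and 37 with all 96 libraries in one model, and 245 to 1132 with a library left out, lowest without ct30_524 (252 without ct42_542) and highest without ct42_541. The 5 differences from tamoxifen males numbered 16 by DESeq2, 0 with the relaxed filter, 0 without ct54_559 and ct58_565, and 0 to 7 with a library left out. The Scd1 peak reversed without ct54_559 (amplitude 0.324, adjusted p = 0.0091) and without ct54_559 and ct58_565 (0.36, adjusted p = 0.0062), and its amplitude ran from 0.324 to 1.236 with each library left out in turn. Of 144 named genes, 61 lost their call in the second 24 h alone, 24 in the first and 11 without ct54_559 and ct58_565. Causes of these changes were not tested. Fits of both differences with no filter could not be made, and a relaxed filter stands in. No paired analysis was possible because title numbers are not shared between groups. Depth limits genes near 0.157 to 0.242 CPM.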
